A study of Homo sapiens with 4 samples.

Results

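The genes described here are MYC and 44 nucleolar genes of ribosome production, 45 gene symbols in all, followed across 4 Affymetrix expression arrays of the human BJ-TE line. They were chosen by name: a probe set was taken when the array's annotation gave it exactly 1 of these symbols. This found 52 of the 22277 probe sets on the array, for 35 of the 45 symbols. Of the other 10 symbols, NOP56, DKC1, BOP1 and PPAN have only probe sets that are annotated to further genes as well, and NOP58, GNL3, EBNA1BP2, DDX18, LYAR and NOB1 were not analysed here. BJ is a line of human foreskin fibroblasts, and the genetic changes that set BJ-TE apart from it are not given in the labels. Cells carried a short hairpin RNA (shRNA) against p73, a relative of the tumour suppressor p53, or a control hairpin labelled ns, and were taken at 100% or 40% confluence, the share of the dish that the cells cover. The 4 groups were p73 shRNA at 100%, ns shRNA at 100%, p73 shRNA at 40% and ns shRNA at 40%, with 1 array each.

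Ribosomes are assembled in the nucleolus, where RNA polymerase I transcribes the precursor of the 18S, 5.8S and 28S ribosomal RNAs. A large particle, the small subunit processome, folds and cuts the 18S portion, other factors mature the large subunit, and small nucleolar RNA-protein complexes (box C/D and box H/ACA) modify the RNA. MYC is a transcription factor that binds the E-box sequence CACGTG together with MAX and is known to drive genes of this pathway in proliferating cells.

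All 35 measured genes were brighter, on their brightest probe set, than the median probe set of the array, the filter used for testing, which 6759 of 11963 genes passed. The intensities are linear and had been scaled by the authors to a common mean, which hides any shift common to most genes. The median intensity was 105 to 122 and the 99th percentile 10196 to 13157, highest on the p73 shRNA array at 40%. The probe sets for 18S ribosomal RNA read 188 to 356 on 3 arrays and 495 to 759 on the ns shRNA array at 40%. The 3′ to 5′ ratio of actin, a sign of RNA integrity, was 1.38 (p73 shRNA) and 1.47 (ns shRNA) at 100%, against 1.09 (p73 shRNA) and 1.24 (ns shRNA) at 40%, and that of GAPDH was 1.02 on both 100% arrays, against 0.98 (p73 shRNA) and 0.93 (ns shRNA) at 40%. These ratios moved with confluence, as the genes below did. TP73, the gene that the hairpin targets, read 2.04 with p73 shRNA and 1.65 with ns shRNA at 100%, and 2.09 with p73 shRNA and 1.68 with ns shRNA at 40%, all far below the filter, so the arrays hold no check of the knockdown. Fibroblast markers were above the filter in 16 of 16 cases, against 4 of 13 for epithelial cells, 2 of 8 for endothelial cells, 1 of 5 measured for blood cells and 1 of 5 measured for melanocytes. The fibroblast markers changed with confluence too: 11 rose and 2 fell, and their summed intensity was 119241 (p73 shRNA) and 114107 (ns shRNA) at 100%, against 100928 (p73 shRNA) and 90824 (ns shRNA) at 40%. Over all genes tested, 20.4% rose and 16.1% fell with confluence. The part of the markers and of the 3′ to 5′ ratios in the results below was not tested.

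The first comparison asked how dense cells differ from sparse ones. At 100% confluence 26 of the 35 genes (74.3%) fell, none rose and 9 did not pass the test, whereas 16.1% of all 6759 genes tested fell and 20.4% rose, 36.6% in all (limma over all 4 arrays, adjusted p under 0.05). The median change of the 35 genes was -0.68 on the log2 scale, against 0.01 for all genes tested. The small subunit group had 11 of 13 genes that fell, the large subunit group 6 of 7, the box H/ACA group 2 of 2 and the PeBoW complex 2 of 2. RNA polymerase I had 2 of 4, the nucleolar scaffold proteins 2 of 5 and the box C/D group 0 of 1. These are bulk RNA values, so fewer cells of a type and less RNA per cell cannot be told apart.

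The pattern was present with either hairpin. At 100% confluence 32 of the 35 genes were lower with p73 shRNA and 33 with ns shRNA, 31 of them with both, and 37% of all genes tested were lower with both. The median log2 ratio of 100% over 40% was -0.61 with p73 shRNA and -0.66 with ns shRNA. Both 100% arrays lay below both 40% arrays for 30 genes, above them for 1 and overlapped for 4. Over all genes tested, 30.8% lay below and 33.7% above. At least 2-fold lower values at 100% were seen for 10 genes with p73 shRNA, where 2.62% of all genes tested were that low, and for 8 genes with ns shRNA, against 2.63%. None of the 35 was at least 2-fold higher at 100%, where 6.35% of all genes tested were with p73 shRNA and 5.65% with ns shRNA.

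**Figure D1:**
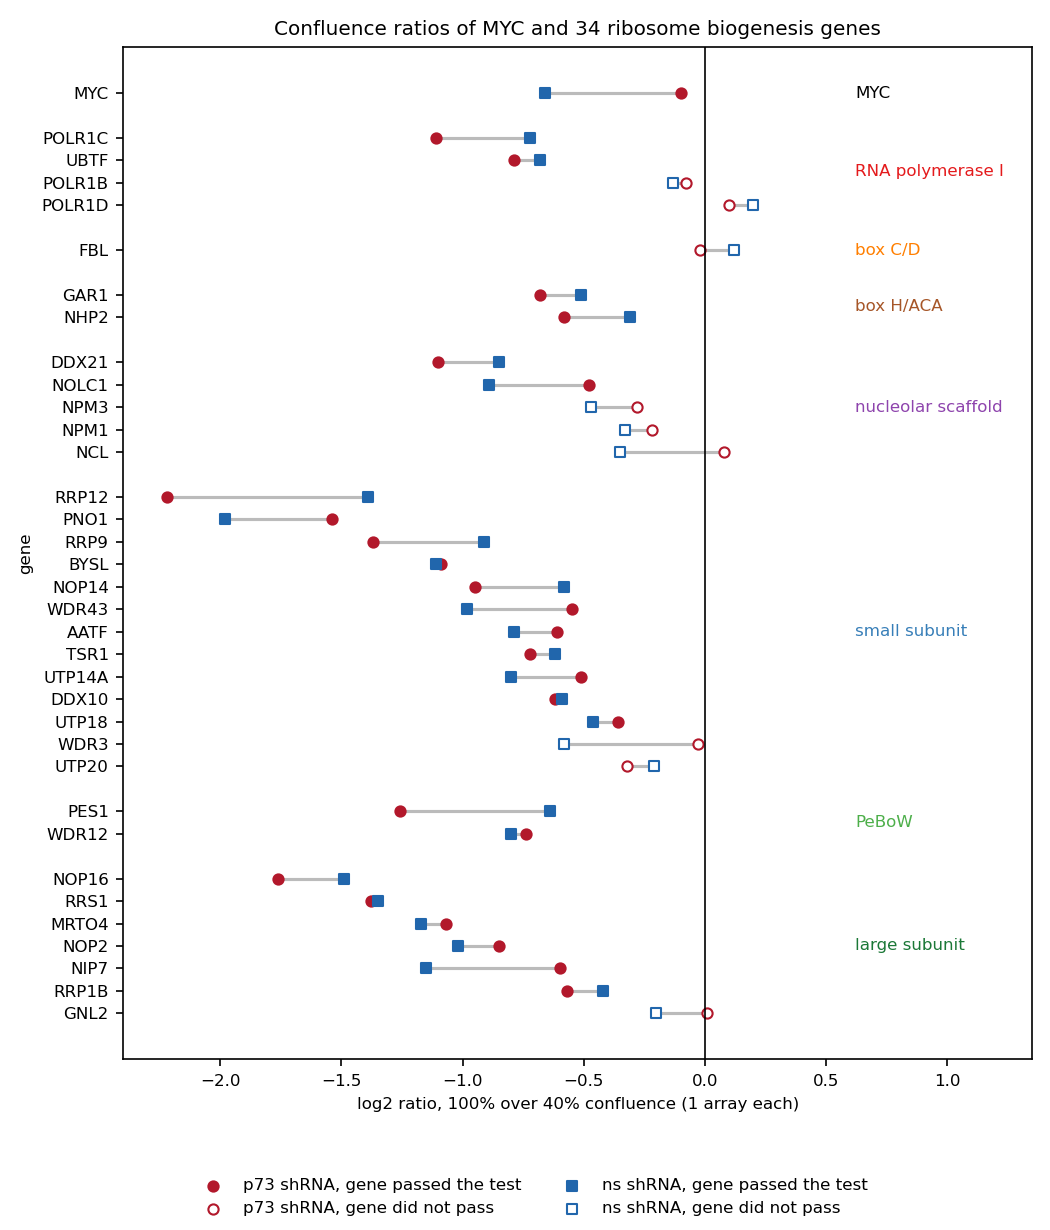
Each row is a gene, and the points give its log2 ratio of 100% over 40% confluence with p73 shRNA (circles) and ns shRNA (squares), 1 array per group; filled points mark genes that passed the limma test. Nearly all points lie left of 0, with RRP12, PNO1, NOP16 and RRS1 farthest left and POLR1D right of 0 with both hairpins.

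The small subunit factors included the lowest ratios of all 35 genes. RRP12, known in yeast for the nuclear export of ribosomal precursors, had intensities of 81.9 (p73 shRNA) and 145 (ns shRNA) at 100% confluence, against 424 (p73 shRNA) and 400 (ns shRNA) at 40%. Both dense cultures were low and the stages did not overlap, and the p73 shRNA array at 100% was the dimmest. The average log2 change was -1.81 (SE 0.24, limma adjusted p = 4.7e-12), or 3.5-fold lower. Its other 2 probe sets, below the filter, gave -0.21 and -0.78, and averaged over all 3 the gene was too dim to be tested. PNO1, a factor of late 40S precursors, read 486 (p73 shRNA) and 388 (ns shRNA) at 100%, against 1438 (p73 shRNA) and 1568 (ns shRNA) at 40%. Its stages were again fully apart, and the change was -1.76 (SE 0.17, limma adjusted p = 4e-23). A further probe set for PNO1 changed by -1.31.

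RRP9, a protein of the U3 small nucleolar RNA complex, had intensities of 143 (p73 shRNA) and 144 (ns shRNA) at 100%, against 388 (p73 shRNA) and 281 (ns shRNA) at 40%. The dense arrays were alike, while the sparse ones differed by 0.45 between the hairpins. BYSL (bystin), needed for 40S maturation, read 411 (p73 shRNA) and 370 (ns shRNA) at 100%, against 888 (p73 shRNA) and 812 (ns shRNA) at 40%, and its ratio was nearly equal with p73 shRNA (-1.09) and ns shRNA (-1.11). On average RRP9 fell by 1.14 and BYSL fell by 1.10 on the log2 scale (limma adjusted p = 2.4e-05 and 3.12e-08).

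NOP14, a structural protein of the processome, WDR43, which links rDNA transcription to processing, and AATF, part of a small complex needed for 18S processing, changed by -0.77, -0.76 and -0.70. TSR1, a late 40S factor, changed by -0.67, UTP14A by -0.66, the RNA helicase DDX10 by -0.61 and UTP18 by -0.41, all past the test. Averaged over their probe sets, UTP14A and UTP18 did not pass (limma adjusted p = 0.0723 and 0.188), and the call of UTP18 was lost in 4 of 8 alternative settings. The processome proteins WDR3 and UTP20 did not pass (-0.31 and -0.26, limma adjusted p = 0.165 and 0.375). For WDR3, 3 arrays were close together, with 703 (p73 shRNA) at 100%, and 719 (p73 shRNA) and 730 (ns shRNA) at 40%, and the ns shRNA array at 100% was lower, at 483. One TSR1 probe set differed from the others: its change was 0.09, while the other pair gave -0.67 and -0.70.

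Among the large subunit factors, NOP16 changed most. It had intensities of 552 (p73 shRNA) and 582 (ns shRNA) at 100%, against 1899 (p73 shRNA) and 1655 (ns shRNA) at 40%. Both dense cultures were about equally low and the stages did not overlap, with a change of -1.63 (SE 0.16, limma adjusted p = 2.78e-21). A further bright probe set for NOP16 gave -1.49, and its other 2, below the filter, gave -0.14 and 0.27. The mean over all 4 probe sets changed by -0.75 (limma adjusted p = 0.015).

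RRS1, which helps to bring the 5S RNA particle into the large subunit precursor, read 370 (p73 shRNA) and 388 (ns shRNA) at 100%, against 980 (p73 shRNA) and 1009 (ns shRNA) at 40%. The log2 ratio of p73 shRNA over ns shRNA was -0.07 at 100% and -0.04 at 40%, and RRS1 fell by 1.36 (SE 0.18, limma adjusted p = 1.37e-12). MRTO4, known in yeast as a placeholder for a protein of the ribosomal stalk, had 1135 (p73 shRNA) and 984 (ns shRNA) at 100%, against 2399 (p73 shRNA) and 2224 (ns shRNA) at 40%, a change of -1.12 (limma adjusted p = 9.58e-12).

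NOP2, a methyltransferase of 28S ribosomal RNA, read 516 (p73 shRNA) and 557 (ns shRNA) at 100%, against 940 (p73 shRNA) and 1137 (ns shRNA) at 40%. It fell by 0.93, NIP7 by 0.87 and RRP1B by 0.49. The direction of RRP1B turned to 0.02 when its bright and its dim probe set were averaged (limma adjusted p = 0.951), and its call was lost with confluence as the single factor (limma adjusted p = 0.0753). GNL2, a nucleolar GTPase, was level across the arrays, at 1778 (p73 shRNA) and 1613 (ns shRNA) at 100%, against 1769 (p73 shRNA) and 1856 (ns shRNA) at 40% (-0.10, limma adjusted p = 0.655). PES1 and WDR12, which form the PeBoW complex of large subunit maturation with BOP1, both fell. PES1 had 502 (p73 shRNA) and 657 (ns shRNA) at 100%, against 1222 (p73 shRNA) and 1030 (ns shRNA) at 40% (-0.95, limma adjusted p = 3.51e-07). WDR12 had 830 (p73 shRNA) and 701 (ns shRNA) at 100%, against 1392 (p73 shRNA) and 1228 (ns shRNA) at 40% (-0.77, limma adjusted p = 2.63e-05). For both genes each dense array lay below each sparse one.

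**Figure D2:**
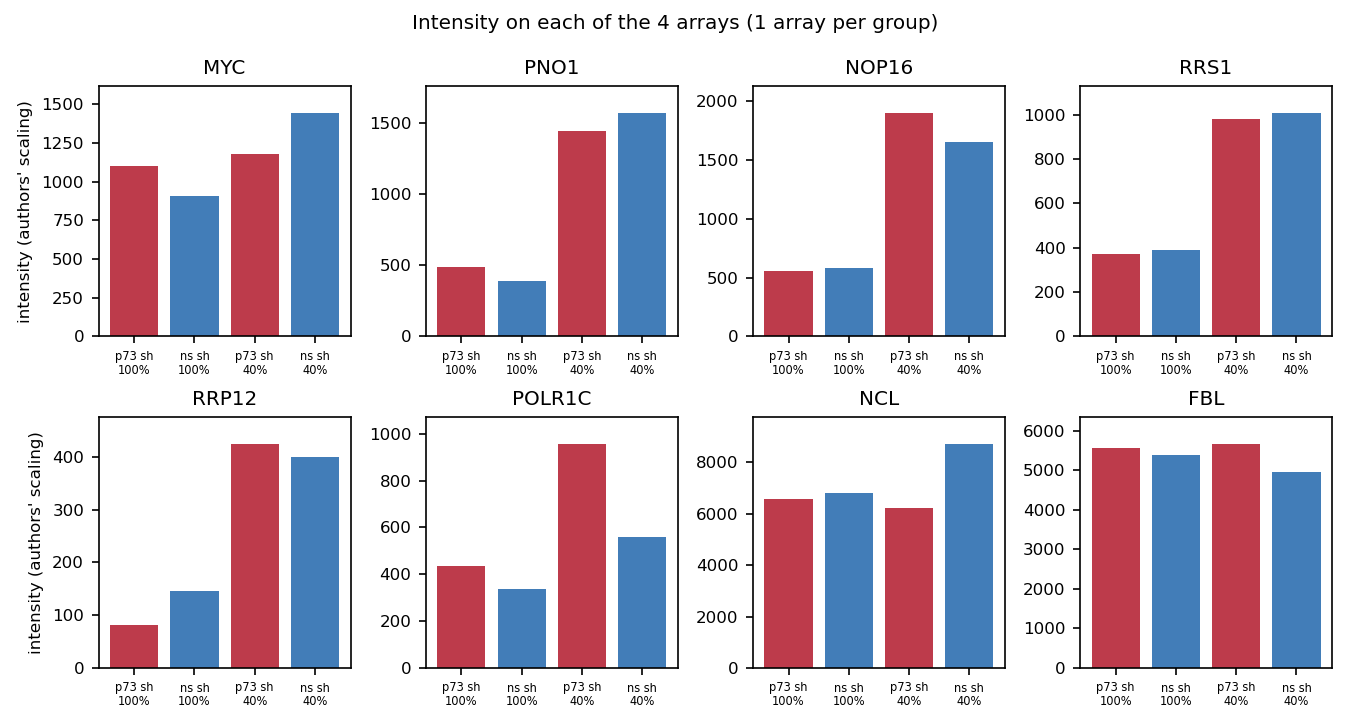
Bars give the intensity of MYC and 7 other genes on each array, in the authors' scaling and on an axis from 0, with p73 shRNA left of ns shRNA (written sh) and 100% left of 40% confluence; there is 1 array per bar and no error bar. PNO1, NOP16, RRS1, RRP12 and POLR1C are lower on both 100% arrays, while NCL is highest on the ns shRNA array at 40% and FBL is nearly level.

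The RNA-modifying complexes were measured through few genes, and FBL alone stood for the box C/D group. The values therefore do not compare the types of particle. SNU13, a further box C/D protein read with the comparison lists, fell by 0.81 (limma adjusted p = 1.41e-05). GAR1 and NHP2, core proteins of the box H/ACA particles that guide pseudouridylation, fell by 0.59 and 0.44 (limma adjusted p = 0.00197 and 0.0065). FBL (fibrillarin), the methyltransferase of the box C/D particles, read 5558 (p73 shRNA) and 5369 (ns shRNA) at 100%, against 5651 (p73 shRNA) and 4942 (ns shRNA) at 40%. Its stages overlapped and the change was 0.05 (limma adjusted p = 0.821).

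The subunits of RNA polymerase I were uneven. POLR1C, a subunit shared with RNA polymerase III, had intensities of 437 (p73 shRNA) and 335 (ns shRNA) at 100%, against 955 (p73 shRNA) and 560 (ns shRNA) at 40%, and fell by 0.91 (SE 0.19, limma adjusted p = 1e-05). UBTF, which binds the ribosomal RNA gene promoter, read 274 (p73 shRNA) and 239 (ns shRNA) at 100%, against 483 (p73 shRNA) and 388 (ns shRNA) at 40%, and fell by 0.73 (limma adjusted p = 0.00261). For both genes the dense arrays were lower, and their other probe sets changed by -0.45 (POLR1C) and -0.96 (UBTF). POLR1D, the partner of POLR1C, read 2097 (p73 shRNA) and 2105 (ns shRNA) at 100%, against 1960 (p73 shRNA) and 1833 (ns shRNA) at 40%. It was thus the single gene of the 35 with both dense arrays above both sparse ones, but it did not pass (0.15, limma adjusted p = 0.464). POLR1B, a catalytic subunit, gave -0.10 (limma adjusted p = 0.786).

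The scaffold proteins included the brightest probe set of the 35 genes, that of NPM1. DDX21, an RNA helicase of the nucleolus, had 759 (p73 shRNA) and 845 (ns shRNA) at 100%, against 1645 (p73 shRNA) and 1536 (ns shRNA) at 40%, and fell by 0.98 (limma adjusted p = 2.04e-08). NOLC1, a chaperone of small nucleolar RNA particles, fell by 0.68, and its other probe sets gave -1.30 and -0.62. NPM1 (nucleophosmin) read 14852 (p73 shRNA) and 12380 (ns shRNA) at 100%, against 17280 (p73 shRNA) and 15566 (ns shRNA) at 40%. Its dense arrays were lower, but the change of -0.27 did not pass (limma adjusted p = 0.0955), and processed pseudogenes of NPM1 make the source of its signal uncertain. NCL (nucleolin) read 6568 (p73 shRNA) and 6822 (ns shRNA) at 100%, against 6232 (p73 shRNA) and 8702 (ns shRNA) at 40%. The ns shRNA array at 40% stood above the other 3, the stages overlapped, and the change of -0.14 did not pass (limma adjusted p = 0.457). NPM3 did not pass either (-0.37, limma adjusted p = 0.24).

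MYC itself had intensities of 1098 (p73 shRNA) and 907 (ns shRNA) at 100%, against 1175 (p73 shRNA) and 1444 (ns shRNA) at 40%. Both dense arrays lay below both sparse ones, by little with p73 shRNA (-0.10) and more with ns shRNA (-0.66). On average MYC fell by 0.38 (SE 0.16, limma adjusted p = 0.0481), less than the median of the 35 genes. This call was lost in 5 of 8 alternative settings, among which the adjusted p ran between 0.0469 and 0.156.

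With 1 residual degree of freedom from 4 arrays, the model set the error of a gene by the typical spread of genes of like brightness. Without that intensity trend 23 genes fell, and the calls of MYC, NHP2 and UTP18 were lost. Of all 6759 genes tested, 833 fell in that fit. The residual is the disagreement between the hairpins in their confluence ratio, since no group has a replicate. With the trend, the p-values weigh a change against the typical disagreement at that brightness, and a gene's own disagreement carried no weight. They cover no spread between replicate cultures, and the labels do not state whether cultures were grown separately. For PNO1 the limma adjusted p was 4e-23 with the trend and 2.26e-06 without it. Part of the disagreement may be technical, and the number of arrays limits the precision.

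Because MYC binds CACGTG, the RefSeq promoter windows (GRCh38.p14, 250 bases before to 50 after each annotated start) were searched for these letters, which read the same on both strands. The windows matched 37 of the 45 symbols, and 19 of these genes (51.4%) held the motif. By window, 20 of 47 (42.6%) held it, against 9.79% of the windows of all genes tested and 7.26% of the 35116 windows in the table. Within 50 bases of the start the motif stood in 34% of the 47 windows of these 37 genes. It stood there in 4.06% of the windows of all genes tested and in 2.82% of all windows. The motif and its flanks are shown for the 9 genes with the largest falls among those with a match, and then for the 3 with a match that did not pass the confluence test, 5′ to 3′ on the strand of the gene, with the motif in capitals.
PNO1 (chr2:68157885-68157914, + strand): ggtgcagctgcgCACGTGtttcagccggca
RRP9 (chr3:51941892-51941921, - strand): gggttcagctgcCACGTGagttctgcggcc
MRTO4 (chr1:19251807-19251836, + strand): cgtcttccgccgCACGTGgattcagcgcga
BYSL (chr6:41921515-41921544, + strand): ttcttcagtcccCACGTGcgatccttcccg
DDX21 (chr10:68956604-68956633, + strand): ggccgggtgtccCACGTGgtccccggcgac
PES1 (chr22:30591880-30591909, - strand): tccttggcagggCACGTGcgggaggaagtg
NOP2 (chr12:6568242-6568268, - strand): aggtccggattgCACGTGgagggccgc
NOP14 (chr4:2963374-2963403, - strand): tccgcggcccggCACGTGtcttagggtagc
WDR43 (chr2:28894658-28894687, + strand): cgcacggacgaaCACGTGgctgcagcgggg
UTP20 (chr12:101280083-101280112, + strand): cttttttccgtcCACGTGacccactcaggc
GNL2 (chr1:37595917-37595946, - strand): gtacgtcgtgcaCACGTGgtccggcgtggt
FBL (chr19:39846356-39846385, - strand): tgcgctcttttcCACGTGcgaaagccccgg

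Among the 35 measured genes the motif occurred at 17 places in 16 genes, and 13 of the 17 began between 12 bases before and 42 bases after the annotated start. With the start counted as 0, the motif of PNO1 began 9 bases after it, in MRTO4 14 and in BYSL 28, and that of RRP9 at -5, before the start. UTP18 held it at 2 places. Of the 16 genes with the motif, 13 fell at 100% confluence and the median log2 change was -0.76. Of the 14 genes with a window but no motif, 8 fell and the median was -0.53. The 5 genes without a window in the table all fell, with a median of -0.68. The share that fell was 81.2% with the motif and 57.1% without it, and the link between motif and change was not tested. Of all genes tested, 5716 had a window and 928 of these fell. The motif was held by 773 of the 5716, and 170 of the 773 fell. A match is a description of these letters and shows no binding.

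**Figure D3:**
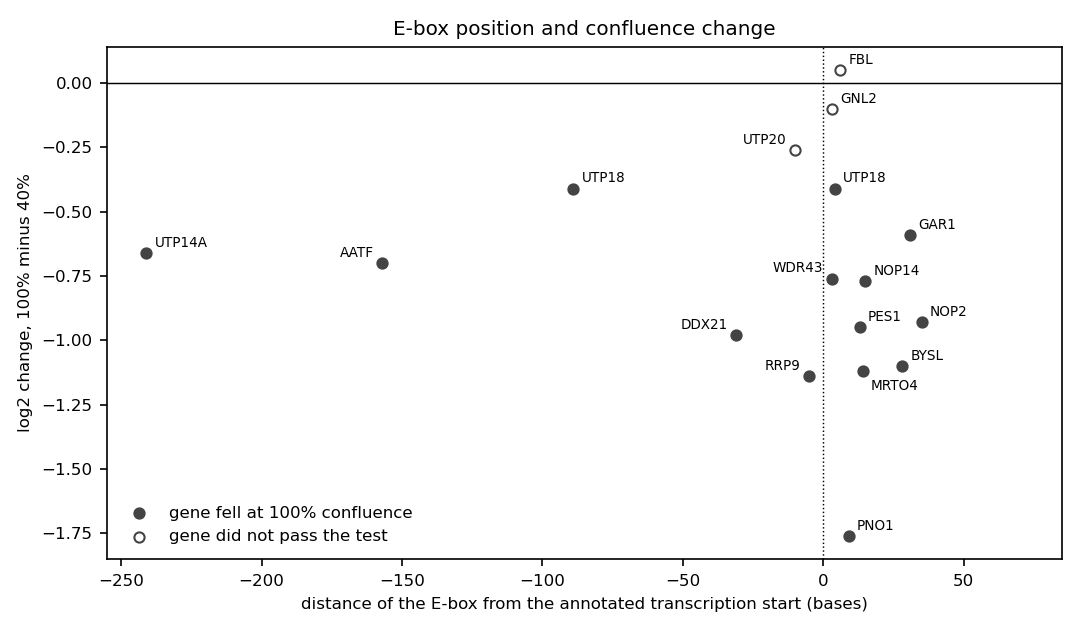
Each point is a CACGTG match, placed by its distance in bases from the annotated start (x axis, 0 marks the start) and by the average log2 change of its gene between 100% and 40% confluence (y axis). Most matches crowd just around the start, where PNO1 has the lowest change and FBL, GNL2 and UTP20 (open points) did not pass the test.

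Genes of the same pathway that are not among the 45 were read from lists for comparison. Of 32 other small subunit factors, 15 fell and none rose (median -0.39), led by NOL6 (-1.31) and NOC4L (-1.10), both processome proteins. Of 40 other large subunit factors, 25 fell and none rose (median -0.53), led by CCDC86 (-1.44) and GRWD1 (-1.17). Among 19 genes of small nucleolar particle assembly and the RNA exosome, 10 fell and none rose (median -0.39), with EXOSC9, an exosome subunit, at -1.15; 5 fell without the intensity trend. Of 14 further genes of RNA polymerase I and its factors, 5 fell and none rose (median -0.27), with POLR1G at -1.28. Among the 5, POLR2E, POLR2F and POLR2K are subunits shared with RNA polymerases II and III, so they are not particular to RNA polymerase I. Each of these shares lies above the 16.1% of all genes tested that fell. That of the RNA polymerase I list includes the shared subunits, and POLR1E and POLR1G were its other falls. Without the intensity trend, 833 of all 6759 genes tested fell.

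MYC targets outside the nucleolus fell as well: 22 of 34 did and none rose (median -0.43), or 14 without the intensity trend. Over all genes tested, 16.1% fell and 20.4% rose. Without the trend, 833 of the 6759 fell and 1237 rose. ODC1, the first enzyme of polyamine synthesis, read 2257 (p73 shRNA) and 1851 (ns shRNA) at 100%, against 8438 (p73 shRNA) and 7136 (ns shRNA) at 40%. Its change was -1.92 (limma adjusted p = 1.23e-39, or 5.02e-07 without the trend). CTPS1, which makes CTP, changed by -1.54, the amino acid transporter SLC7A5 by -1.40 and the spermidine synthase SRM by -1.40. In the network of MYC partners and regulators, 6 of 16 genes rose and 3 fell (median 0.32), or 5 and 1 after quantile normalization and 5 and 0 without the trend. The 18.8% of the network that fell was near the share over all genes tested. RUVBL1 (-0.41) and RUVBL2 (-0.37), both among these falls, are also counted in the list of small nucleolar particle assembly. MXI1, a MAX partner that opposes MYC, read 1275 (p73 shRNA) and 1497 (ns shRNA) at 100%, against 165 (p73 shRNA) and 264 (ns shRNA) at 40%. Its dense arrays were high with both hairpins, and it rose by 2.66 (limma adjusted p = 9.56e-44, or 2.28e-08 without the trend). MGA and MNT, further MAX partners, rose by 1.04 and 0.72, and MYCBP2, a ubiquitin ligase that binds MYC, rose by 0.92.

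The ribosomal proteins themselves, the cargo of the pathway, moved little. Of 51 genes 19 fell and none rose, with a median of -0.27 and no change beyond -0.46 (RPS19). The share that fell was 37.3%, against 16.1% of all genes tested. This direction turned with the scaling: after quantile normalization the median was 0.03, none fell and 3 rose, and without the intensity trend none passed. The 35 genes kept a median of -0.72 and 25 falls after quantile normalization. Many ribosomal protein genes have processed pseudogenes, so their probe sets are less certain than those of the biogenesis factors.

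**Figure D4:**
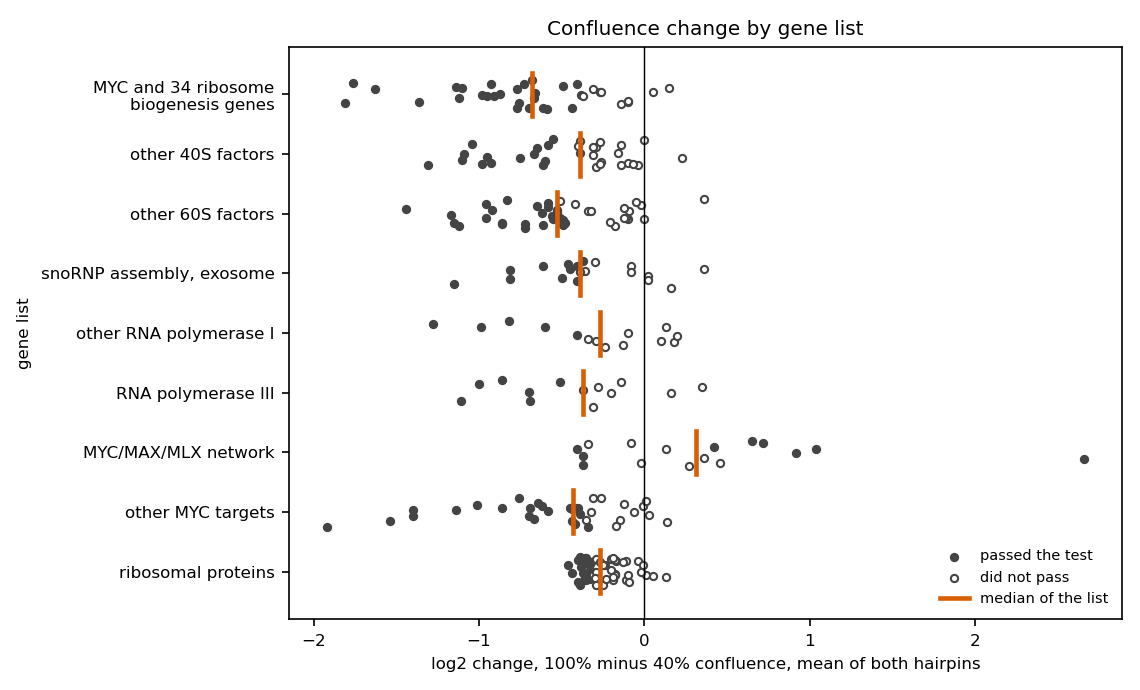
Each point is a gene of a list, placed by its average log2 change between 100% and 40% confluence, filled where it passed the limma test; the orange bar is the median of the list. MYC and the 34 biogenesis genes have a median of -0.68, the lowest of the 9 lists in these values, and the MYC/MAX/MLX network is the single list with a median above 0.

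The other comparison asked what the p73 hairpin did. None of the 35 genes passed the test between p73 shRNA and ns shRNA, whereas 1.58% of all genes tested fell and 1.14% rose, 2.72% in all (limma over all 4 arrays, adjusted p under 0.05). At an unadjusted p under 0.05 there were 2 of the 35, POLR1C and NCL, and 13.6% of all genes tested. The median log2 change of the 35 genes was 0.06, against 0.00 for all genes tested. None of the 35 differed by 2-fold between the hairpins at either stage, where 0.311% of all genes tested were that much higher and 0.355% that much lower at 100%, and 0.636% and 1.15% at 40%.

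The hairpin ratios had no common direction. With p73 shRNA 11 genes were higher at both stages, 7 were lower at both, and 17 were higher at one stage and lower at the other, where 29% of all genes tested were higher at both and 29.4% lower at both. The small subunit group had a median of 0.14 and the large subunit group one of -0.05. POLR1C had the largest average, at 0.56 (SE 0.19, unadjusted p = 0.00241, limma adjusted p = 0.0719). Its p73 shRNA arrays read 437 at 100% and 955 at 40%, against 335 and 560 for ns shRNA, so p73 shRNA was higher at both stages, by 0.37 and 0.76. Its other probe set gave 0.19.

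NCL averaged -0.27 (unadjusted p = 0.0497, limma adjusted p = 0.365). The p73 shRNA arrays of NCL both lay below the ns shRNA arrays, with log2 ratios of -0.05 at 100% and -0.48 at 40%. The same order held for POLR1B, and the opposite for FBL, whose p73 shRNA arrays both lay above. Over all genes tested, 10.9% had both p73 shRNA arrays below both ns shRNA arrays and 10.5% above. RRP12 had the lowest single ratio of the 35, -0.75 at 100%, where its p73 shRNA intensity of 81.9 lay under the filter's 111, and it was 0.08 at 40%.

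MYC did not differ between the hairpins on average (-0.01, SE 0.16, limma adjusted p = 0.993). Its ratio of p73 shRNA over ns shRNA was 0.27 at 100% and -0.29 at 40%. WDR3 was higher with p73 shRNA at 100% (0.53) and level at 40% (-0.02), and PES1 gave -0.38 at 100% and 0.24 at 40%. Each of these stage ratios rests on 1 array against 1, with no test.

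**Figure D5:**
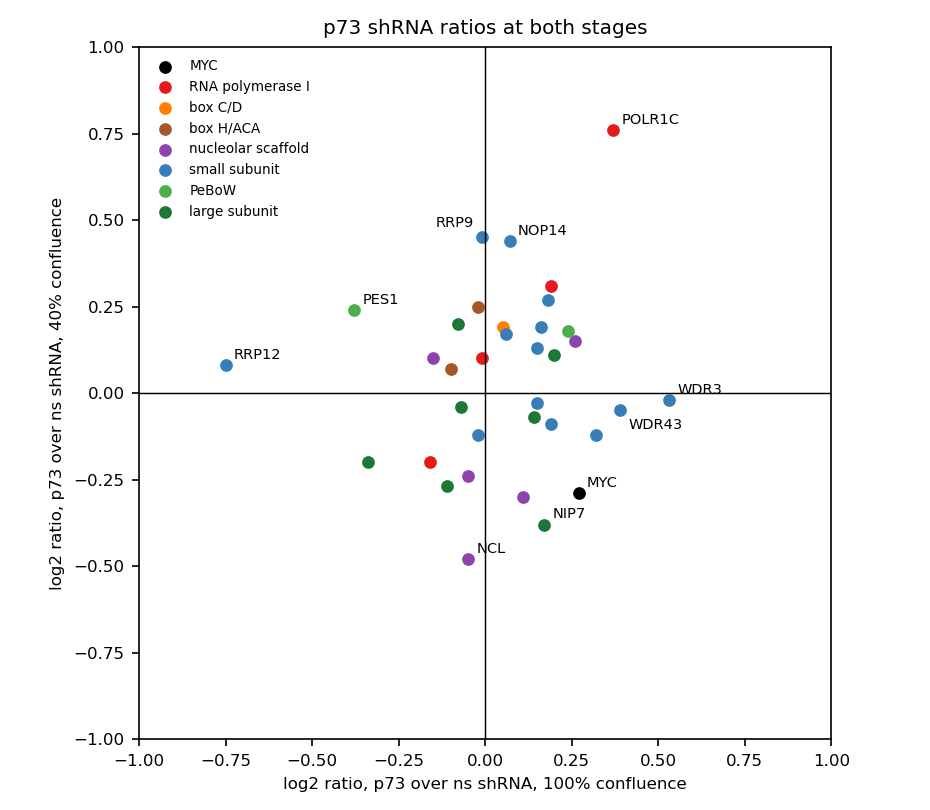
Each point is a gene, placed by its log2 ratio of p73 shRNA over ns shRNA at 100% (x axis) and at 40% confluence (y axis), coloured by role, with 1 array per group. The points scatter around 0 on all sides, POLR1C stands highest at 40%, and MYC is right of 0 at 100% and below 0 at 40%.

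In the 8 comparison lists, 6 genes passed the p73 test, and the calls of all 6 were lost without the intensity trend. They were 1 of 40 large subunit factors, 1 of 13 RNA polymerase III genes and 1 of 16 genes of the MYC network. The others were 1 of 34 MYC targets and 2 of 51 ribosomal proteins. Over all genes tested, 2.72% passed, so few calls of this kind stand out from that share. DDX27, a helicase of large subunit maturation, read 851 with p73 shRNA and 731 with ns shRNA at 100%, and 1228 with p73 shRNA and 522 with ns shRNA at 40%, and rose by 0.72 (limma adjusted p = 0.00301). Its difference lay mostly in the sparse cultures, where the ns shRNA array was the lowest of the 4. POLR3F, an RNA polymerase III subunit, fell by 0.81 (limma adjusted p = 0.044), and the metabolic kinase NME1 rose by 0.49 (limma adjusted p = 0.0199). HUWE1, a ubiquitin ligase with MYC among its substrates, rose by 0.74 (limma adjusted p = 1.03e-05), but gave 0.46 after quantile normalization (limma adjusted p = 0.0804) and -0.07 as a mean over its probe sets (limma adjusted p = 0.916). The ribosomal proteins RPL37A and RPL23A rose by 0.51 and 0.48 (limma adjusted p = 0.00862 and 0.0192), and RPL37A gave -0.14 as a mean over its probe sets. The ribosomal protein list had a p73 median of 0.26, 0.13 at 100% and 0.37 at 40%, and of 0.01 after quantile normalization. Of the 16 fibroblast markers, 2 fell with p73 shRNA (LUM by 1.34 and PDGFRA by 0.58) and 2 rose (VIM by 0.51 and THY1 by 0.49), against 2.72% of all genes tested in either direction. LUM, a collagen-binding proteoglycan, kept its call without the intensity trend (limma adjusted p = 0.00512), and the other 3 lost theirs.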

How the data were processed

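Total RNA was profiled on 4 arrays, 1 per group, grouped by the sample titles. The authors deposited a linear intensity for every probe set on each array. The software that summarised them was not given in the sources used here. Each array had a trimmed mean of 500.1 to 500.2, and the values were used as deposited. Of 22277 probe sets, 62 were controls, 19064 had 1 gene symbol, 1043 several and 2108 were not listed; current symbols were found through Entrez IDs for 19052.

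Intensities were converted to log2(intensity + 11.5), with 11.5 the 20th percentile of all values, which understates ratios of dim genes. A gene took its brightest probe set and was tested when the mean reached the median of probe sets, 6.94 on this scale or about 111 in intensity. Confluence and hairpin were fitted in an additive model with limma 3.58.1 in R 4.3.3 (empirical Bayes with intensity trend, two-sided, Benjamini-Hochberg over 6759 genes, threshold 0.05). The code was first run on simulated data with hairpin changes alone and errors set by brightness, as the model assumes. That run checks the code and not the confluence calls. Prior degrees of freedom were infinite with the trend. Ratios of single stages or hairpins have no test. Figures used matplotlib 3.10.9.

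The members, the 8 comparison lists and the 5 marker lists were chosen with earlier results of these data known. By rule, full values were given for MYC, members that passed the p73 test, members with the largest changes at confluence (up to 12 a direction) and those that complete a complex; up to 4 genes of each comparison list were named. Alternatives were another normalization, pseudocounts, filters, a mean over probe sets, single probe sets, no trend and 1 factor alone.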

Additional observations from a re-analysis of the deposited data

Results flagged for a closer look

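The p73 shRNA ratio of MYC had opposite signs at the 2 stages. Its log2 ratio of p73 shRNA over ns shRNA was 0.27 at 100% confluence and -0.29 at 40%. The difference between the stages was not tested, since each ratio rests on 1 array against 1.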

How the results depend on the processing

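No paired analysis was possible because each group has 1 array and the labels give no replicate numbers; the additive model already compares stages within hairpin, and leaving out an array leaves no residual degrees of freedom. The count of genes that fell at 100% confluence was 26 and ran from 21 to 26 over the gene-level alternatives (33 of 45 probe sets fell when each was tested). The p73 count was 0 in each of them, with 0 to 2 genes at an unadjusted p under 0.05. Of all 6759 genes tested, 1089 fell at 100% confluence in the main setting and 833 without the trend. The shares of all genes in the other settings are not given here. The median confluence change was -0.65 when probe sets were averaged per gene (-0.68 with the brightest), and the p73 median was 0.07 after quantile normalization (0.06). At 1.5-fold and 3-fold in place of 2-fold, 19 and 2 genes were lower at 100% with p73 shRNA and 21 and 1 with ns shRNA. At 1.5-fold, 1 gene differed between the hairpins at 100% and 1 at 40%. The shares of all genes tested at 1.5-fold and 3-fold are not given here, so these counts have no background to be read against. With the mean of probe sets, signs turned for RRP1B (0.02) and RPS14 (0.06) at confluence and for HUWE1 (-0.07) and RPL37A (-0.14) with p73 shRNA; a dim RRP1B probe set changed by 0.54. MYC lost its call after quantile normalization, without the filter, with the mean of probe sets, without the trend and with confluence as the single factor; RRP12, RRP9 and UBTF were too dim to be tested under the stricter filter, and RRP12 also with the mean of probe sets. NHP2 lost its call without the filter, without the trend and with confluence alone. The causes of the other differences were not tested. The alternatives for comparison genes, and the counts of genes lower at 100% with p73 shRNA arrays alone (32) or ns shRNA arrays alone (33), were added after seeing the data.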

Other observations

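RNA polymerase III, which makes the 5S ribosomal RNA and transfer RNAs, was measured through 13 genes. Of these 6 fell at 100% confluence and none rose, with a median log2 change of -0.37. The share that fell was 46.2%, against 16.1% of all genes tested. POLR3K, a small subunit of this enzyme, read 617 (p73 shRNA) and 515 (ns shRNA) at 100%, against 1338 (p73 shRNA) and 1129 (ns shRNA) at 40%, and fell by 1.11 (limma adjusted p = 1.39e-09). POLR3D, POLR3B and POLR3C fell by 1.00, 0.86 and 0.70.

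The E-box CACGTG also stood near the start of comparison genes. It was held by 36.7% of the windows of other small subunit factors, 26.7% of those of other large subunit factors, 34% of those of MYC targets outside the nucleolus and 30.8% of those of RNA polymerase III genes. The share was 11.1% for small nucleolar particle assembly and exosome genes, 7.69% for the MYC network, 6.25% for other RNA polymerase I genes and 5.77% for ribosomal proteins, against 9.79% for all genes tested. Among all genes tested, 13.4% of the windows of genes that fell at 100% confluence held it, against 7.62% for genes that rose. Within 50 bases of the start the shares were 7.71% for genes that fell and 2.45% for genes that rose. These are descriptions of promoter sequence with no test.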
